A study of Canis lupus familiaris with 40 samples.

Results

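The expression of 42 genes that were restricted to neutrophils over monocytes in healthy dogs, and that were low in most libraries of polymorphonuclear myeloid-derived suppressor cells (PMN-MDSCs), was followed through 40 RNA-seq libraries of flow-sorted dog blood cells. The genes were chosen on the deposited CPM values, read counts per gene scaled to the same total in every library. Of 24580 Ensembl genes in the table, 24560 stayed under 20000 CPM in every library, and 3835 of the genes had a mean of at least 20 CPM in the neutrophils of healthy dogs (H PMN). Of these, 115 genes had an H PMN mean at least 20 times their mean in healthy monocytes (H Mono), and are called neutrophil-restricted here. The 42 genes are those among the 115, or 36.5%, whose median over the PMN-MDSC libraries was at most 25% of the H PMN mean. The other 73 neutrophil-restricted genes, which lay above that limit, serve as the comparison. A list of 580 monocyte-restricted genes was chosen in the mirror way, with an H Mono mean of at least 20 CPM and of at least 20 times the H PMN mean.

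The libraries fell into 6 populations, among them monocytic MDSCs (M-MDSCs), with 5 H PMN and 3 H Mono libraries from healthy dogs and 10 C PMN, 8 C Mono, 9 PMN-MDSC and 5 M-MDSC libraries from dogs that bore various tumors. Neutrophils were sorted as CD5-CD21-MHCII-CD11b+CADO48A+ cells from the dense pellet of the density gradient, and monocytes as CD5-CD21-MHCII+CD11b+CD14+ cells from the mononuclear layer. Both suppressor populations came from the mononuclear layer of tumor-bearing dogs and lacked MHCII, PMN-MDSCs as CD14-CADO48A+ cells and M-MDSCs as CD14+CADO48A- cells. Age, breed and the dog behind each library are not given in the labels. The paper sets PMN-MDSCs beside neutrophils of the same patient, so that libraries of different populations can share a dog. The fits treated all libraries as independent, and p-values measure the spread between these libraries. The series' design text counts fewer libraries of C PMN and of PMN-MDSC than are labelled so. All healthy libraries carry the name prefix GAR4079, while 4 libraries each of C PMN, PMN-MDSC and C Mono and 2 of M-MDSC carry PAT4694. Libraries are numbered here within each population in sample order, and equal numbers in different populations do not tie libraries to the same dog.

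Neutrophils are short-lived cells that leave the bone marrow fully granulated and enter tissue in response to bacterial products and chemokines. Their granule proteins are made early, in marrow precursors, whereas receptors for chemoattractants are made late, as the cells mature. PMN-MDSCs are neutrophil-like cells that suppress T cells, that sediment with mononuclear cells rather than with dense neutrophils, and that include immature and activated stages. In bulk libraries, fewer cells of a type and less RNA per cell cannot be told apart. The tables give Ensembl gene identifiers without names, and 0 of 24580 identifiers could be matched to a symbol in the reference table used here, so that the genes are named by identifier, or by their rank from 1 to 42 in H PMN level, and no role is given for any of them. Their sequences were not analysed here.

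Between 4229857 and 60473238 counts fell on genes per library, and 2 libraries, C PMN 7 and PMN-MDSC 9, held fewer than 10000000 counts, with 3470 and 3959 genes at 10 counts or more. Their TMM scaling factors of 0.149 and 0.150 were the lowest of all 40. PMN-MDSC 3 and PMN-MDSC 8 stood apart from the other 7 PMN-MDSC libraries at full depth (43296791 and 26160902 counts). Their summed level of the 580 monocyte-restricted genes was 2645 and 6089 CPM, inside the C PMN range of 1479 to 8218 CPM, against 13055 to 25001 CPM in the other 7 PMN-MDSC libraries. No gene name was available with which to check the sorted populations against their defining markers.

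In healthy neutrophils the 42 genes had mean levels from 20.1 to 4312 CPM, with a median of 62.1 CPM, and 5 of the genes lay above 1000 CPM and 17 above 100 CPM. The 5 highest took 65.2% of the summed level, and the 14 highest took 91.4%. For 24 of the 42 genes the highest H PMN library was less than 3 times the lowest, and for 6 genes it was more than 10 times the lowest. The gene of rank 22 was the most uneven, with 66.8 to 95.7 CPM in 4 H PMN libraries and 0.147 CPM in H PMN 5. As the rule requires, the levels in H Mono were low, with H PMN at a median of 75.2 times H Mono over the 41 genes with any H Mono count. The remaining gene, of rank 42, had 0 counts in all 3 H Mono libraries.

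The PMN-MDSC median of the 42 genes ranged from 0.0869% to 23.8% of the H PMN mean, with a median of 13.7%, and 14 of the genes lay under 10%. These values chose the genes and are given as a description. The 3 genes just inside the limit were at 21.7%, 22.3% and 23.8%, and the 3 neutrophil-restricted genes just outside it at 25.03%, 25.98% and 26.7%, so that there was no gap in the distribution at the limit. For 40 of the 42 genes the PMN-MDSC median was also below the lowest H PMN library.

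The summed level of the 42 genes was 17599.7 ± 2320.3 CPM in H PMN (SD, n = 5), 11163 ± 5123 in C PMN (n = 10) and 4864 ± 5234 in PMN-MDSC (n = 9). In the monocytic populations it was 1175 ± 380.3 CPM in M-MDSC (n = 5), 494 ± 171 in C Mono (n = 8) and 271 ± 54.6 in H Mono (n = 3). H PMN libraries lay between 14508 and 20233 CPM and M-MDSC libraries between 603 and 1576 CPM, while the highest C Mono library had 714 CPM. C PMN libraries covered 6117 to 18949 CPM, apart from C PMN 7 with 1195 CPM. PMN-MDSC libraries did not form a single group. Libraries 3 and 8, with 15700.4 and 11547 CPM, lay inside the C PMN range, 6 others lay between 1768 and 5119 CPM, and PMN-MDSC 9 had 118 CPM.

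**Figure D1:**
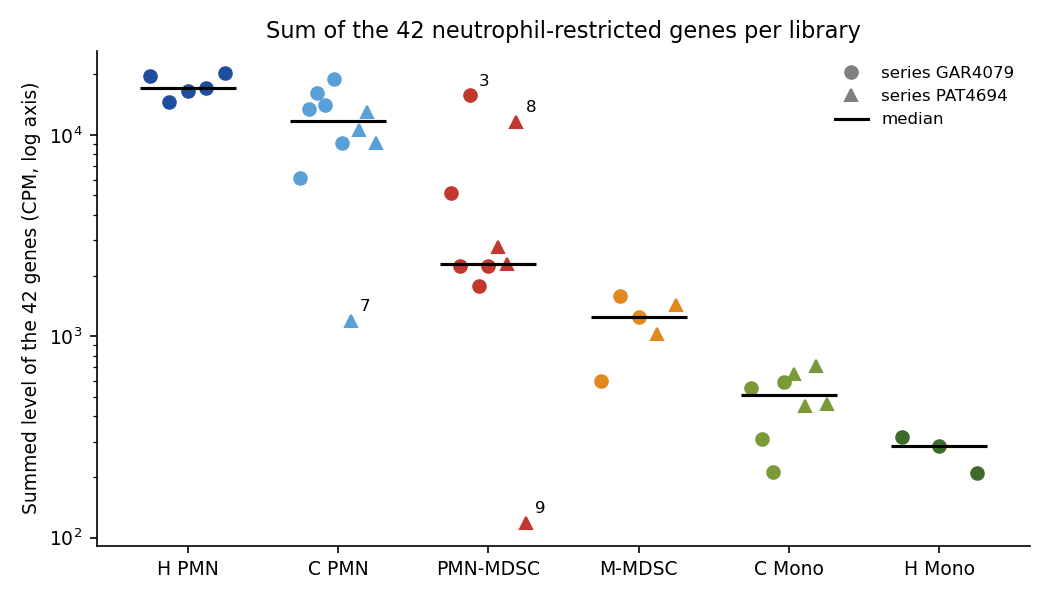
Summed level of the 42 genes in each library (CPM, log axis) by population, with circles for libraries named GAR4079, triangles for PAT4694 and a bar at each population's median. PMN-MDSC 3 and 8 sit at 15700.4 and 11547 CPM among the C PMN libraries, and C PMN 7 and PMN-MDSC 9, the libraries under 10000000 counts, sit lowest in their populations at 1195 and 118 CPM.

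The same division was seen when every gene was given equal weight, as a percentage of its own H PMN mean. The median over the 42 genes was 91.0% to 109.9% in the H PMN libraries and 26.3% to 63.3% in 9 C PMN libraries, and 1.74% in C PMN 7. In PMN-MDSC it was 63.95% in library 3 and 57.0% in library 8, 7.90% to 15.2% in 6 libraries and 0.445% in library 9. Libraries 3 and 8 both exceeded the other 7 PMN-MDSC libraries in 29 of the 42 genes, against 15.4% of the 10278 genes tested between PMN-MDSC and C PMN, and in 31 of the other 73 neutrophil-restricted genes. Measured against the range of the 9 C PMN libraries other than C PMN 7, library 3 of PMN-MDSC lay inside it for 36 genes, above it for 6 and below it for 0, and 87.8% of all genes tested lay inside it. PMN-MDSC 8 lay inside it for 33 genes, above it for 6 and below it for 3, against 79.2% of all genes inside. The 6 other PMN-MDSC libraries of full depth lay below it for 18 to 30 of the 42 genes, against 11.0% to 18.6% of all genes, and above it for 0, against 23.1% to 31.0%. PMN-MDSC 9 lay below it for 39 of the 42, where 67.6% of all genes did. The PMN-MDSC medians chose the 42 genes and set the other 73 apart. The counts of 29 and 31, and the counts below and above the range, therefore follow in part from the rule. Libraries 3 and 8 were also singled out after their values were seen. Nothing is read from the difference of these counts to all genes.

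**Figure D2:**
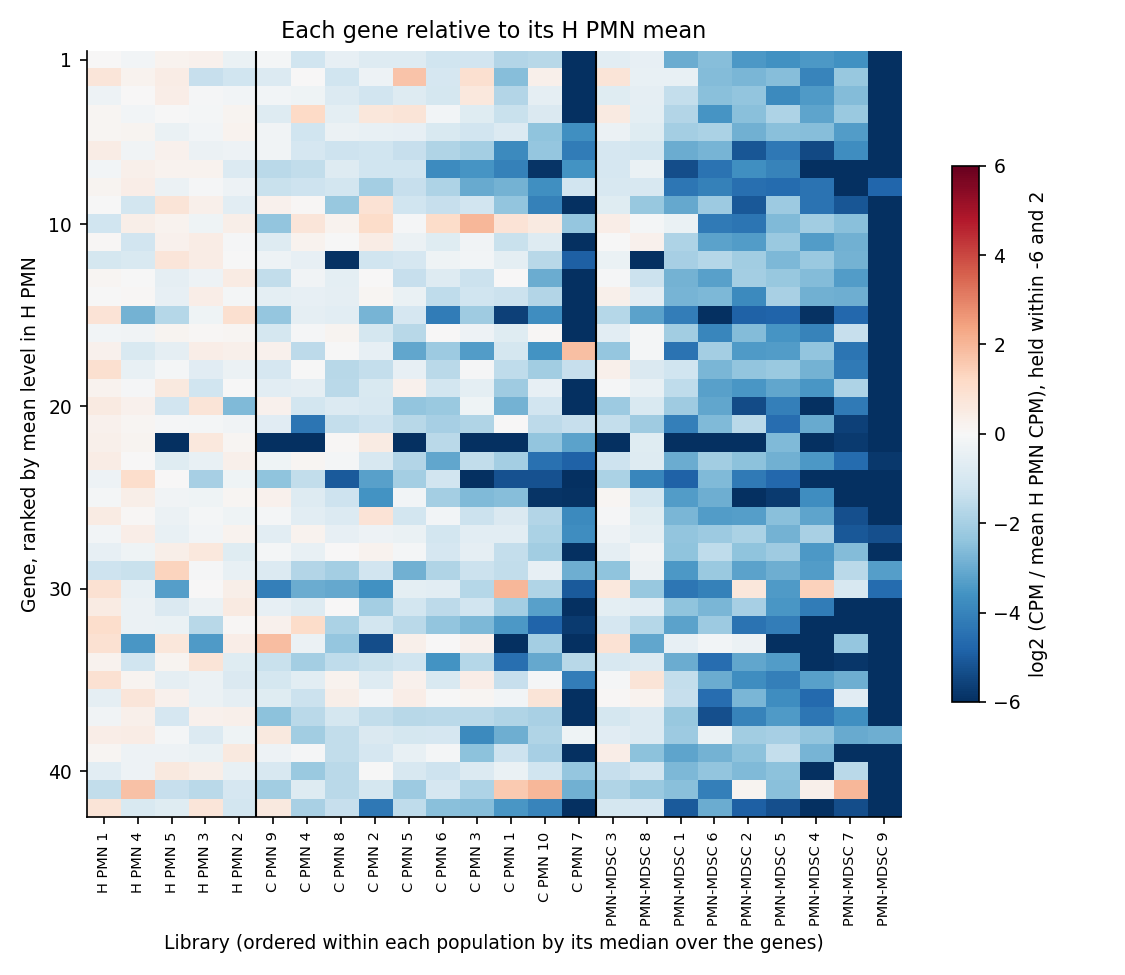
Level of each of the 42 genes (top to bottom, by H PMN rank) in the H PMN, C PMN and PMN-MDSC libraries, as log2 of its CPM over its H PMN mean, with colors held within -6 and 2. Libraries 3 and 8 of PMN-MDSC carry the pale shades of the C PMN libraries, the 6 libraries to their right are blue throughout most genes, and PMN-MDSC 9 and C PMN 7 are darkest.

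By its summed CPM, the monocyte-restricted list was lowest in PMN-MDSC 3 and 8, as given above, and the other 7 PMN-MDSC libraries, which were low in the 42 genes, lay above every C PMN library. With equal weight per gene this order did not hold throughout. The median over the list was 3.18% to 7.04% of H Mono in 5 of those 7 libraries, but 1.924% in PMN-MDSC 7 and 0.602% in PMN-MDSC 9, against 1.13% and 2.75% in libraries 3 and 8 and 0.395% to 2.56% in C PMN. C PMN 7 was low in the 42 genes with 5790.3 CPM on the list, inside the C PMN range. The list was not close to its monocyte level in any PMN-MDSC library, with sums of 128868 to 160256 CPM in C Mono. Between 12 and 117 of the 580 genes had 0 counts in a PMN-MDSC library, the highest number in library 9, against 0 to 2 in C Mono. In the neutrophil libraries the number was 26 to 106 in C PMN and 11 to 82 in H PMN. The other 73 neutrophil-restricted genes summed to 43693 to 60321 CPM in the 6 PMN-MDSC libraries of full depth without 3 and 8, and to 33174 and 27196 CPM in those, with 24781 to 51481 CPM in the 9 C PMN libraries of full depth. With equal weight per gene, however, their median was 39.1% to 74.4% of H PMN in those 6 libraries, below the 94.6% and 89.4% in libraries 3 and 8, where the 9 C PMN libraries had 72.6% to 110.2%. The part of monocyte-restricted transcripts in the level of the 42 genes was not tested, and fits within a library series and without the libraries of low depth are given with the comparisons.

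**Figure D3:**
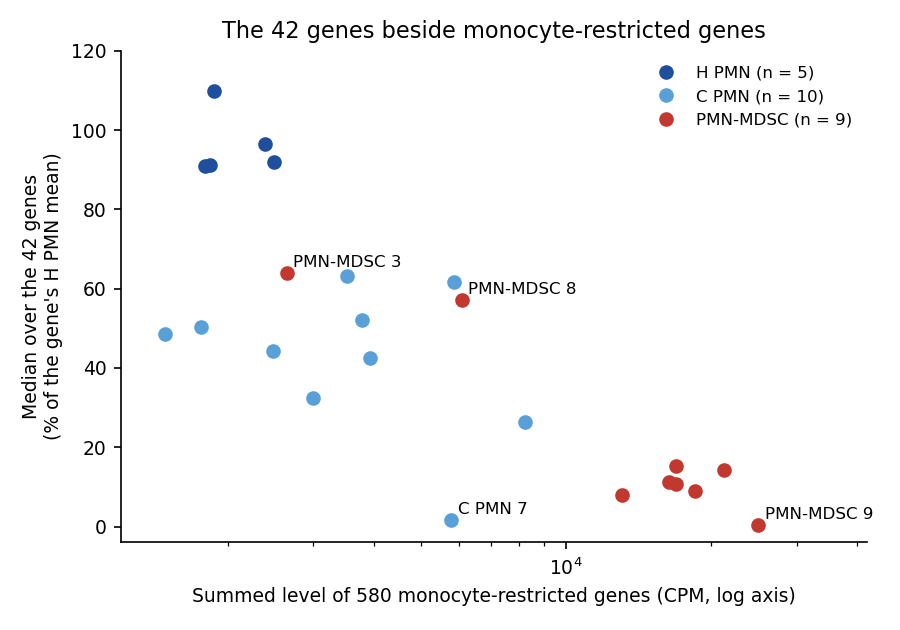
Median over the 42 genes as a percentage of each gene's H PMN mean, against the summed level of 580 monocyte-restricted genes (CPM, log axis), with a point for each neutrophil or PMN-MDSC library. PMN-MDSC 3 and 8 lie among the C PMN libraries at 63.95% and 57.0%, and the other 7 PMN-MDSC libraries lie at the lower right, at or below 15.2% and at or above 13055 CPM.

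ENSCAFG00000023992 had the highest H PMN level of the 42, with 3295, 3816, 4392, 4922 and 5135 CPM in the 5 libraries. In C PMN it had 48.7 CPM in library 7 and 1259 to 3944 CPM in the other 9 libraries, with a median over all 10 of 1920.2 CPM. In PMN-MDSC it had 27.3 CPM in library 9, 342, 353, 390.3, 401, 552 and 725 CPM in 6 libraries, and 2772 and 3101 CPM in libraries 3 and 8. Those 2 libraries overlapped C PMN, and the other 7 were below every C PMN library except C PMN 7. In M-MDSC it had 20.2, 31.2, 65.0, 66.5 and 159 CPM, above the 6.79 to 14.6 CPM of the 3 H Mono libraries, and M-MDSC 3, 4 and 5 were above the highest C Mono library at 39.8 CPM. C Mono had a lowest value of 1.98 CPM and a median of 13.03 CPM.

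The restriction to neutrophils was chosen in healthy dogs and was next examined in tumor-bearing dogs, whose C PMN and C Mono libraries the rule did not use. All 42 genes were higher in C PMN than in C Mono at a false discovery rate (FDR) of at most 0.05 in edgeR's quasi-likelihood test, where 31.5% of the 11261 genes tested were higher and 65.6% differed in either direction. The genes could pass the low count filter through their level in neutrophils, but without the filter 42 of 42 were again called higher, against 28.9% of 20656 genes. The log2 fold changes ran from 4.09 to 9.86 with a median of 6.63, against a median of -0.03 over all genes tested. The other 73 neutrophil-restricted genes were also all called, with a median of 6.52. Within GAR4079 libraries 41 of the 42 genes were called higher, against 29.5% of all genes, and within PAT4694 libraries 36 of the 37 tested, against 13.7%. The ratio of mean CPM in C PMN to that in C Mono was 7.29 to 475, with a median of 49.9, and it reached 20 for 31 of the 42 genes and 10 for 41.

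Every C PMN library exceeded every C Mono library for 17 of the 42 genes, against 1.93% of the genes tested. Without C PMN 7, the library of lowest depth, this held for 33 of the 42 genes, against 8.17%. In C PMN 7 itself, 31 of the 42 genes were below all other C PMN libraries and 7 had 0 counts, shares near those of all 10278 genes tested between PMN-MDSC and C PMN, at 67.6% and 21.2%.

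ENSCAFG00000014158, of rank 40, had the smallest adjusted p of the 42 in this comparison. It had 16.3, 18.6, 20.2, 32.02 and 38.2 CPM in H PMN and 4.96 to 25.02 CPM in C PMN, with a median of 11.8 CPM. Every C PMN library was far above C Mono, where 4 of 8 libraries had 0 counts and the highest had 0.110 CPM. Pooled over libraries, 4214 of 310554525 counts in C PMN gave 13.6 CPM (95% exact Poisson interval 13.2 to 13.99), and 7 of 264348492 counts in C Mono gave 0.0265 CPM (0.0106 to 0.0546), intervals that cover counting error only. The log2 fold change in edgeR was 9.70 ± 0.68 (SE, adjusted p = 1.25e-09), a size that depends on the prior count because the C Mono libraries hold so few reads. In M-MDSC it had 7 counts in all 5 libraries together, or 0.0454 CPM (0.0182 to 0.0935). In PMN-MDSC it had 0.0501 CPM in library 4 and 0.159 CPM in library 9, 3.92 to 8.17 CPM in 5 libraries, and 9.56 and 11.4 CPM in libraries 3 and 8. ENSCAFG00000023992 differed between C PMN and C Mono by 8.01 ± 0.64 (SE, adjusted p = 4.76e-09 in edgeR) on the log2 scale.

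C PMN had lower means than H PMN for 40 of the 42 genes, where the mean was lower for 70.1% of the 10871 genes tested. The C PMN mean was 14.47% to 157% of the H PMN mean, with a median of 51.7%, and 19 genes lay under 50%. For the other 73 neutrophil-restricted genes the median was 88.2%, and 45 of them were lower in C PMN. These are ratios of CPM. With TMM scaling in edgeR, the log2 fold changes of the 42 genes had a median of -0.59, and 6 were positive. The median was 0.18 for the other 73 and 0.09 over all genes tested. Since the H PMN means chose the genes, these values are a description. In the edgeR test between C PMN and H PMN, 0 of the 42 genes were called, with 0.00% called over all genes, and 9 of the 42 had an unadjusted p under 0.05, all lower in C PMN, against 9.22% of all genes in either direction. The DESeq2 Wald test called 4 of the 42, against 0.396% of all genes in that direction, and limma voom called 5, against 0.515%, all lower in C PMN. Among GAR4079 libraries alone, which hold all H PMN libraries, 2 were called lower in edgeR, against 0.178%. The H PMN means had chosen the genes for these tests as well, so nothing is read from the counts called. H PMN and C PMN differ in library series, since no PAT4694 library is from a healthy dog.

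Between PMN-MDSC and C PMN, the PMN-MDSC libraries had chosen the genes, and the counts are given beside their background with nothing read from them. All 42 genes had a lower median in PMN-MDSC, as did 38.7% of all genes tested. The fitted log2 fold changes were all negative, from -3.73 to -0.22 with a median of -1.31, and the median was -0.80 for the other 73 neutrophil-restricted genes. At an FDR of at most 0.05 in edgeR, 4 of the 42 were called lower, where 1.57% of 10278 genes were called lower and 8.47% higher. An unadjusted p under 0.05 was found for 24 of the 42, all lower, against 27.6% of all genes in either direction. The DESeq2 Wald test called 17 of the 42 lower, against 7.55%, and limma voom 35, against 19.97%. Within GAR4079 libraries edgeR called 6 of 41 tested lower, against 5.60%, and within PAT4694 libraries 0, against 0.00%. Without PMN-MDSC 3 the count was 20 and without PMN-MDSC 8 it was 14, against 4.55% and 3.31% called lower over all genes. Without both it was 34, against 7.59%, with a median log2 fold change of -2.43, and without these and the 2 libraries of low depth it was 36, against 16.2%. PMN-MDSC 3 and 8 were left out after their values were seen, which raises the count by construction. Without C PMN 7 the count was 13, against 4.74%, and without PMN-MDSC 5 it was 0. Without C PMN 7 and PMN-MDSC 9 together it was 13, against 8.15%.

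ENSCAFG00000019853, of rank 17, had the smallest adjusted p of the 42 between PMN-MDSC and C PMN, and its value rested on a library of low depth. It had 56.6 to 142 CPM in H PMN with a median of 129 CPM. In C PMN it had 8.98, 43.8 and 371 CPM as the lowest, median and highest values, the highest in C PMN 7. In PMN-MDSC it had 0.317, 10.5 and 97.3 CPM as the lowest, median and highest values, the highest in library 8, so that the populations overlapped over most of their ranges. The log2 fold change in edgeR was -3.73 ± 1.044 (SE, adjusted p = 0.0263), and without the 2 libraries under 10000000 counts it was -1.22 (adjusted p = 0.151). PMN-MDSC values had chosen the 42 genes, so these fold changes and p-values are a description.

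ENSCAFG00000017829, of rank 10, was the gene with the highest H PMN level among the 4 called, and the one with the highest C PMN mean relative to H PMN, at 157%. Its H PMN libraries had 200.04 to 597 CPM with a median of 535 CPM, and its C PMN libraries 90.1 to 1863 CPM with a median of 711 CPM. In PMN-MDSC it had 1.27 CPM in library 9, 22.2 to 109.6 CPM in 5 libraries, and 347, 431 and 618 CPM in libraries 1, 8 and 3. The log2 fold change between PMN-MDSC and C PMN was -2.29 ± 0.69 (SE, adjusted p = 0.0378 in edgeR), and between C PMN and C Mono it was 9.86 ± 1.02 (SE, adjusted p = 9.01e-08 in edgeR). ENSCAFG00000014158 was also among the 4, at -1.71 ± 0.55 (SE, adjusted p = 0.0485 in edgeR), and ENSCAFG00000023992 was not, at -1.30 ± 0.54 (SE, adjusted p = 0.123 in edgeR). For these genes too, the values between PMN-MDSC and C PMN are a description, since PMN-MDSC libraries had chosen them.

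**Figure D4:**
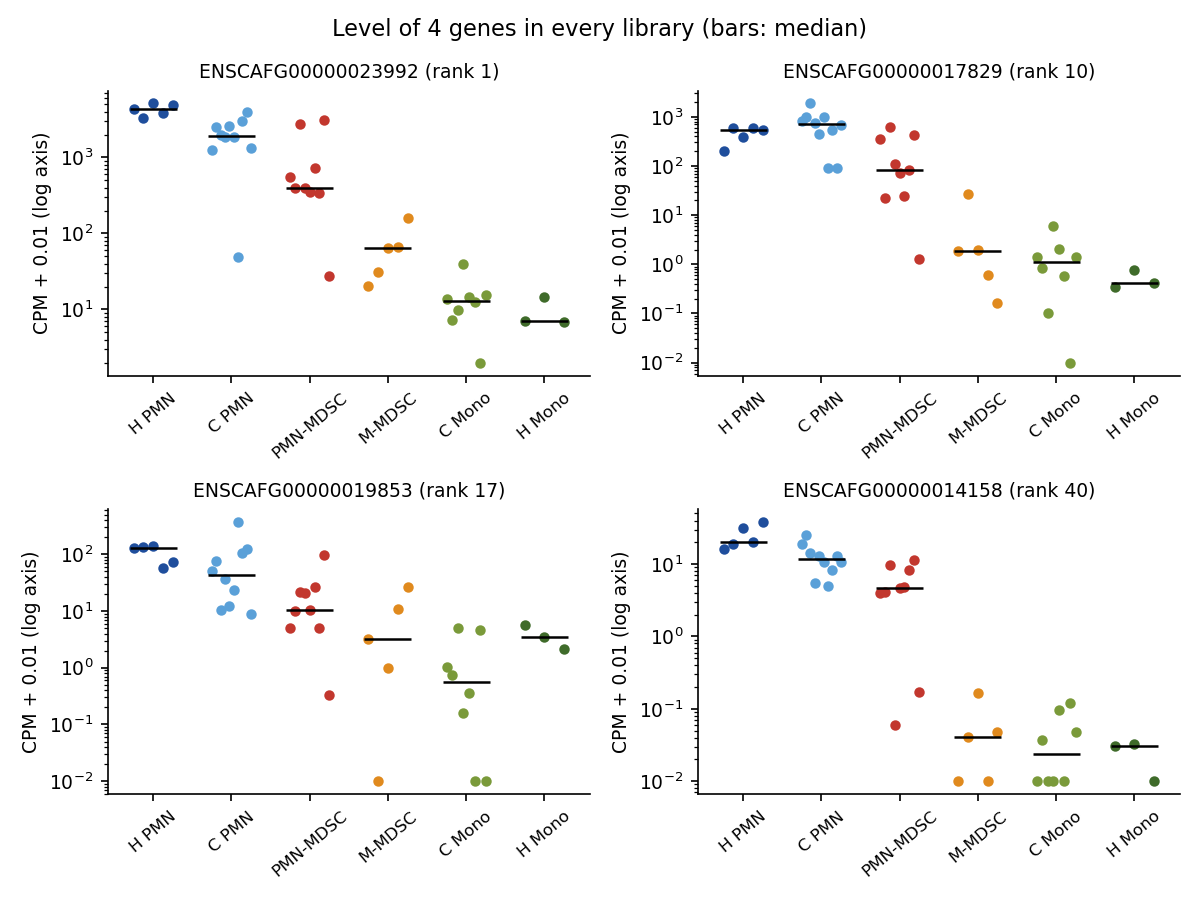
Level of the 4 named genes in every library (CPM + 0.01, log axis) by population, with a bar at the median. PMN-MDSC 3 and 8 lie at 2772 and 3101 CPM for the gene of rank 1, among the C PMN libraries, and the gene of rank 40 is at or below 0.156 CPM in every M-MDSC, C Mono and H Mono library.

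To look at PMN-MDSC libraries that had no part in the choice, the rule was applied again with the 5 GAR4079 PMN-MDSC libraries alone. It kept 37 genes, all of them among the 42, and these were compared within PAT4694, between 4 libraries of PMN-MDSC and 4 of C PMN. All 37 had a negative log2 fold change, with a median of -1.36, where 50.4% of 9666 genes were negative and the median of all genes was -0.01. The other 73 neutrophil-restricted genes, set apart with PMN-MDSC libraries of both series, had a median of -0.62 between the same libraries. In edgeR, 0 of the 37 passed an FDR of at most 0.05, with 0.00% called over all genes, and 4 had an unadjusted p under 0.05, all lower, against 0.941% of all genes. Without the libraries under 10000000 counts, 37 of 37 were negative at a median of -1.14, against 50.7% of all genes, and 2 had an unadjusted p under 0.05, against 1.21%. Without PMN-MDSC 8 the median was -2.58, and 14 of the 37 had an unadjusted p under 0.05, against 2.30%. That library was left out after its values were seen. The genes are not independent of each other, and 4 libraries a population limit what this comparison can call.

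The library series were also compared within C PMN. The C PMN median over the 42 genes was 32.4% to 61.7% of H PMN in the 6 GAR4079 libraries and 1.74% to 63.3% in the 4 PAT4694 libraries. In edgeR, 0 of the 42 genes were called between the series, with 0.00% called over all genes, and 6 had an unadjusted p under 0.05, 3 in each direction, against 12.3% of all genes. The DESeq2 Wald test did call genes, 580 of 10303 in either direction, and among them 2 of the 42, both higher in PAT4694, against 4.94% of all genes. The gene furthest apart was ENSCAFG00000019853, higher in PAT4694 by 4.02 ± 1.11 on the log2 scale (SE, adjusted p = 0.213 in edgeR), where C PMN 7 is the highest library. Whether the difference between PMN-MDSC and C PMN differed by series was tested as an interaction, which called 0 of the 42 genes, with 0.00% called over all genes. None of the 42 had an unadjusted p under 0.05 in it, against 3.30% of 12014 genes. PMN-MDSC values of both series had chosen the 42 genes, so nothing about the library series is read from these interaction counts.

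Both monocytic populations of tumor-bearing dogs were outside the rule, and the 42 genes were low in each of them. M-MDSC libraries had a median over the 42 genes of 0.729% to 3.93% of H PMN, and C Mono libraries of 0.407% to 1.24%, so that the ranges overlapped. The mean was higher in M-MDSC for 35 of the 42 genes, against 44.8% of the 11874 genes tested, and the ratio of means was 0.315 to 9.57 with a median of 2.27. For 40 of the 42 genes the M-MDSC mean was still below the PMN-MDSC median. Of the 36 genes that passed the low count filter, 3 were called higher in edgeR and 0 lower, where 0.505% of genes were called higher and 0.758% in either direction. Without the filter 3 of 42 were called, against 0.273%. An unadjusted p under 0.05 was found for 10 of the 36, all higher, against 13.7% of all genes in either direction. The DESeq2 Wald test called 7 higher, against 2.34%, and limma voom 5, against 0.707%. Of the other 73 neutrophil-restricted genes, 12 of 72 tested were called higher in edgeR, with a median log2 fold change of 1.58, against 1.40 for the 36.

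The called genes were of ranks 11, 3 and 5. The gene of rank 11 had 23.5, 48.9, 51.0, 65.1 and 67.3 CPM in M-MDSC and 8.10 to 18.7 CPM in C Mono, a log2 fold change of 1.93 ± 0.25 (SE, adjusted p = 0.00678 in edgeR). The gene of rank 3 had 181, 213, 312, 362 and 390.2 CPM in M-MDSC and 93.4 to 173 CPM in C Mono, a log2 fold change of 1.26 ± 0.23 (SE, adjusted p = 0.0272 in edgeR). For both genes every M-MDSC library exceeded every C Mono library, which held for 3 of the 42 genes in all and for 0.699% of the genes tested. The gene of rank 5 had 11.2, 29.4, 46.8, 59.0 and 68.9 CPM in M-MDSC and 1.06 to 13.4 CPM in C Mono, a log2 fold change of 3.01 ± 0.58 (SE, adjusted p = 0.0280 in edgeR), with an overlap between M-MDSC 1 and C Mono 6. ENSCAFG00000023992 had a log2 fold change of 2.30 ± 0.57 (SE) that did not pass, with an adjusted p of 0.0750 in edgeR. Without M-MDSC 3, 4 or 5 in turn, 1 of the 36 genes tested was called, against 0.199%, 0.149% and 0.132% of all genes, and within each library series alone 0 were called, with 0.00% of genes called higher in GAR4079 and 0.0333% in PAT4694. The summed level of the other 73 neutrophil-restricted genes moved with this result, from 626 to 1701 CPM in C Mono to 2627 to 4181 CPM in M-MDSC, while the monocyte-restricted list summed to 95788 to 129760 CPM in M-MDSC. Its part in the result was not tested.

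**Figure D5:**
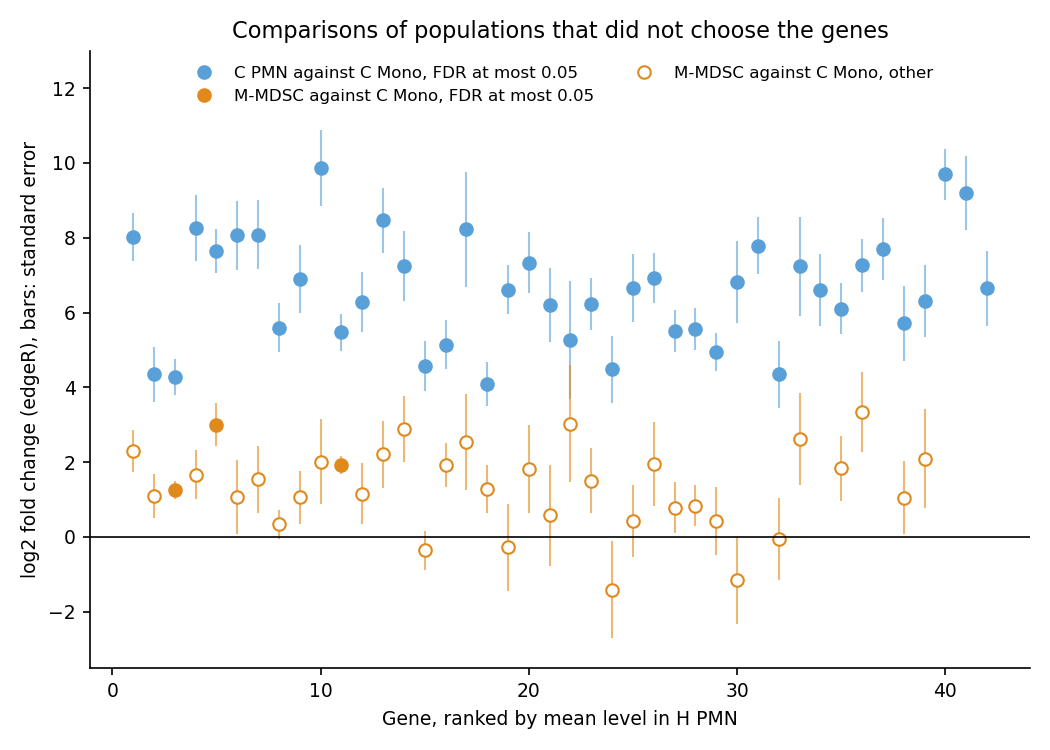
Log2 fold changes in edgeR of the 42 genes (by H PMN rank) between C PMN and C Mono and, for the 36 tested, between M-MDSC and C Mono, with bars for the standard error and filled points for an FDR of at most 0.05. All 42 C PMN points lie between 4.09 and 9.86, and the M-MDSC points lie nearer 0, with ranks 3, 5 and 11 filled.

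The interquartile range of the lengths of the 42 genes lay inside that of genes in general, with a higher lower quartile. The gene length that the deposited counts and TPM (values scaled to gene length and depth) imply, relative to the median gene, had a median of 1.05 over the 42 genes and an interquartile range of 0.727 to 1.72. The median was 1.37 for the other 73 neutrophil-restricted genes and 0.924 over the 17348 genes with enough counts, which had an interquartile range of 0.458 to 1.74.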

How the data were processed

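RNA was sequenced from 40 flow-sorted libraries made with Smart-seq2. The authors trimmed reads with skewer, aligned them to CanFam3.1 with HISAT2 and marked duplicates with Picard 1.92. The deposited counts are the authors' featureCounts (Subread 1.5.0) values for reads on exons of Ensembl genes. The deposited CPM are those counts scaled to each library's total, with 92 spike-in rows included, and the deposited TPM are the authors' length-scaled values. The spike-in rows held 0% to 0.000275% of the counts of a library and were left out of the tests. A repeat of the CPM table was not used. Columns were matched to libraries by their titles, and populations taken from the labels.

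Genes were chosen on CPM as described above. The genes and lists were chosen with earlier results of these data known. Comparisons were made with edgeR 4.0.16 (quasi-likelihood test, TMM, filterByExpr, Benjamini-Hochberg adjustment over all genes tested, FDR at most 0.05) in R 4.3.3, after a trial on simulated counts, with limma 3.58.1 and DESeq2 1.42.0 as alternatives. Standard errors are the log2 fold change over the square root of F. The rule for identifiers without symbols named at most 2 higher and 2 lower genes, by the smallest FDR in the C PMN against C Mono fit and by the highest H PMN mean. It was applied to genes called higher in that fit and, for the 2 lower genes, since none of the 42 was lower in it, to genes called lower in the PMN-MDSC against C PMN fit. Genes shown by rank beyond these were chosen after their values were seen. Lists of neutrophil and cell type markers could not be matched to identifiers and gave no result. No pair of libraries of a population agreed within sampling noise (lowest chi-square of 96.7 per degree of freedom). Depth was 4229857 to 60473238 counts, reads were not counted as molecules, and intervals cover counting error only.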

Additional observations from a re-analysis of the deposited data

Results flagged for a closer look

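Of 70 sets of 4 to 10 libraries examined for a single library far from the others of its population, 10 held one. The critical values used (Dixon's, at 95%) are set so that chance gives about 1 in 20 such sets when values are normally distributed, which was not tested for these. In the median over the 42 genes, H PMN 1 was highest at 109.9% of H PMN means, next to 96.4%. ENSCAFG00000019853 was highest in C PMN 7 at 371 CPM, next to 126 CPM, and in PMN-MDSC 8 at 97.3 CPM, next to 26.3 CPM. ENSCAFG00000017829 was highest in C PMN 3 at 1863 CPM, next to 985 CPM, in M-MDSC 2 at 27.4 CPM, next to 1.97 CPM, and in C Mono 4 at 5.88 CPM, next to 2.02 CPM. ENSCAFG00000014158 was highest in M-MDSC 3 at 0.156 CPM, next to 0.0383 CPM, where the highest M-MDSC library holds 5 counts. ENSCAFG00000023992 was highest in C Mono 4 at 39.8 CPM, next to 15.3 CPM. PMN-MDSC 3 was highest for the gene of rank 2 at 4812 CPM, next to 2095 CPM, and for the gene of rank 4 at 1681 CPM, next to 774 CPM. C PMN 7 is a library under 10000000 counts, and no test of a cause was made for any of these values.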

How the results depend on the processing

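The count of 42 genes higher in C PMN than in C Mono was 41 or 42 under every alternative over all libraries, 41 in GAR4079 alone and 36 of 37 tested in PAT4694 alone. Library size alone in place of TMM moved the median of all genes from -0.03 to -1.08 and left 42 called. Between M-MDSC and C Mono, where 3 were called, the DESeq2 Wald test called 7, limma voom 5, and GAR4079 or PAT4694 alone 0. Between C PMN and H PMN, where edgeR called 0, the DESeq2 Wald test called 4, limma voom 5 and GAR4079 alone 2. Between PMN-MDSC and C PMN, where 4 were called lower, DESeq2 size factors gave 7 (2.39% of all genes), library size alone 0 (with 915 genes higher and 6 lower, against 871 and 161 with TMM, and an all-gene median of 0.20), the DESeq2 Wald test 17, limma voom 35 (19.97% of all genes), GAR4079 alone 6 and PAT4694 alone 0. Alternatives chosen after seeing the data left out the libraries under 10000000 counts (13), PMN-MDSC 3 and 8 (34), or these 4 libraries (36, where 16.2% of all genes were called lower). Between the C PMN series the DESeq2 Wald test called 2. The cause of these changes was not tested.

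With each library left out in turn, the counts were 42 to 42 for C PMN against C Mono, 1 to 4 for M-MDSC against C Mono, 0 to 0 for C PMN against H PMN and for the C PMN series, and 0 to 20 for PMN-MDSC against C PMN. The last count fell to 2 or fewer without any of PMN-MDSC 1, 2, 4, 5, 6 or 7 or C PMN 1, 2, 3, 6 or 10. The number of genes chosen was 39 to 46. It was 42 with TPM in the rule, of which 32 were shared, 22 with the PMN-MDSC mean in place of the median, 18 and 78 with a limit on PMN-MDSC that was halved or doubled, and 21, of which 16 were shared, with C PMN and C Mono in place of H PMN and H Mono, an alternative chosen after seeing the data. Without PMN-MDSC 3 and 8 the rule gave 50 genes, the 42 among them. The mean summed level of a population, as a percentage of H PMN, was also computed with each of its libraries left out in turn. This mean was 58.5% to 69.7% in C PMN, 19.9% to 31.0% in PMN-MDSC and 6.10% to 7.49% in M-MDSC. In C Mono it was 2.63% to 3.03% and in H Mono 1.41% to 1.71%. These are ranges of population means, and single libraries spread more widely. Over all libraries, the median over the genes instead had means of 1.917%, 0.795% and 1.08% in M-MDSC, C Mono and H Mono.

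No paired analysis was possible because the labels give no replicate numbers and do not tie libraries to dogs. With few libraries a population and 2 of low depth, small differences were not detectable.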
